A study of Zea mays with 12 samples.

Results

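Abscisic acid is the plant hormone of drought and seed dormancy, and it also takes part in responses to microbes. Receptors of the PYR/PYL family bind the hormone and then hold protein phosphatases of type 2C, group A. Freed from these phosphatases, SnRK2 kinases phosphorylate basic leucine zipper factors such as ABI5 and its relatives, which bind promoters of dehydrins and other stress genes. The genes of the phosphatases are themselves commonly raised by the hormone, which makes them a brake on its signal.

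The account below follows 9 maize genes of this core among the 52932 genes of the deposited table. They are 2 receptors (PYL4, Zm00001eb396710, and PYL5, Zm00001eb350630), 5 phosphatases (PP2C 37, Zm00001eb419870; PP2C 9, Zm00001eb367840; PP2C 30, Zm00001eb012040; and a pair named PP2C 68, here 68a for Zm00001eb098220 and 68b for Zm00001eb309920) and 2 zipper factors (ABI5-like protein 5, Zm00001eb038010, and ABI5-like protein 4, Zm00001eb366900). They were picked by identifier with results of these data known, so their levels and fold changes are descriptions without a test. The names come from the table and rest on likeness to rice and Arabidopsis proteins. ABI5-like protein 5 is closest to rice TRAB1, and ABI5-like protein 4 to the rice homolog of ABI5. The KEGG annotation in the table places the 9 in 3 steps of hormone signalling, namely the receptors, the phosphatases and the binding factors.

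Whole maize plants (Zea mays) were grown with the Bacillus velezensis strain BV-3 or as CK, taken here as the untreated control, and each plant group carried a disease class, susceptible or resistant. Treatment and class make 4 groups of 3 libraries, which the labels number as replicate biological samples without saying whether they came from separate plants. Where a p is given, it sets a difference between groups against the spread between these samples, estimated over all 4 groups. The sources used here do not give plant age, harvest time or the dose of BV-3. Values are FPKM, fragments per kilobase and M mapped, which allow levels of different genes to be compared. Log2 fold changes carry the standard error (SE) of edgeR's quasi-likelihood fit of raw counts over all 12 libraries. Whether a group is higher because cells of one type were more numerous or because each cell held more RNA cannot be told apart in whole plants.

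Some libraries went against their labels or stood apart. Of 246 genes found only in the BV-3 susceptible libraries against the BV-3 resistant ones, the libraries labelled CK susceptible 2 and 3 held 0.81% and 1.63% above 1 CPM (counts per M), and of 339 genes of the opposite kind they held 94.4% and 95.0%. The first library labelled CK susceptible held 98.0% and 0.59%, and the CK resistant libraries matched their label. The second CK resistant library had a summed photosynthesis level of 1573 FPKM against 12498 to 45940 in the other 11, and a summed ribosomal protein level of 81335 against 9609 to 21527. Morning clock genes summed to 167 to 469 FPKM in the CK libraries and 641 to 3348 in the BV-3 libraries. The third BV-3 susceptible library gave the 641, against 1454 or more in the other BV-3 libraries, and its evening clock genes summed to 529 FPKM against 86.7 to 169 in the other 11. The part of these differences in the results below was not tested. Leaf markers were abundant, and the 41 seed markers summed to at most 8.07 FPKM. The 7 root markers summed to 17.9 FPKM in CK resistant 2, 14.7 in BV-3 resistant 2 and 32.9 in BV-3 resistant 3. In all other libraries the root sum was between 0.972 and 4.27 FPKM. Root signal thus differed between libraries of the resistant groups, and its part in the results below was not tested. These 7 genes cannot decide how much root the samples held. Total counts were 27.0 to 37.8 M per library.

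The receptor PYL4 was lowest in CK resistant plants and higher in every other library. Its levels were 1.49, 1.18 and 1.48 FPKM in CK resistant and 11.4, 8.39 and 7.00 FPKM in BV-3 resistant. The 2 ranges lay far apart, with 38 to 47 counts per library behind the low one and 260 to 444 behind the high one. The log2 fold change was 2.76 ± 0.45 (SE). In the susceptible class the levels were 3.91, 6.46 and 8.87 FPKM under CK and 11.7, 16.3 and 8.66 FPKM under BV-3. These ranges just overlapped, the lowest BV-3 library lying below the highest CK library, and the log2 fold change was 0.91 ± 0.42, or 1.58 when the libraries labelled CK susceptible 2 and 3 were left out. Those 2 libraries carried the markers of the resistant line and still held PYL4 at 6.46 and 8.87 FPKM, above all 3 CK resistant libraries. The value of 8.87 lay within the BV-3 resistant range, and that of 6.46 lay below it.

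The receptor PYL5 stood out in 1 library, the third BV-3 susceptible one, whose clock genes also stood apart. Its levels were 12.2, 13.7 and 8.67 FPKM in CK susceptible and 20.1, 19.8 and 72.8 FPKM in BV-3 susceptible. All BV-3 libraries were above all CK libraries, but the third was more than 3 times the others. The log2 fold change of 1.68 ± 0.49 became 0.78 without that library. In CK resistant the levels were 7.70, 8.18 and 12.3 FPKM, and in BV-3 resistant 7.23, 15.5 and 7.93 FPKM. These ranges overlapped, and the log2 fold change was 0.16 ± 0.48. It changed sign, to -0.13, without the second BV-3 resistant library. Between the classes under BV-3, all resistant libraries were below all susceptible ones, with a log2 fold change of -2.11 ± 0.49, or -1.22 without the third BV-3 susceptible library.

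PP2C 37 moved in opposite directions in the 2 classes. Its levels were 25.8, 9.30 and 39.0 FPKM in CK resistant and 1.40, 5.84 and 0.474 FPKM in BV-3 resistant. The ranges did not overlap, and the log2 fold change was -3.27 ± 0.88. In the susceptible class PP2C 37 stood at 0.237, 1.76 and 0.653 FPKM under CK and at 2.38, 2.35 and 4.75 FPKM under BV-3. Here the BV-3 libraries were all higher, and the log2 fold change was 1.82 ± 0.84, or 3.43 without the libraries labelled CK susceptible 2 and 3. Those 2 libraries carried the markers of the resistant line. At 1.76 and 0.653 FPKM they lay below all CK resistant libraries and within the BV-3 resistant range. The fold change in the resistant class less that in the susceptible class was -5.10 ± 1.21. Across the 12 libraries the highest level was 164 times the lowest, the widest span among the 8 members with counts in every library.

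The pair of PP2C 68 genes both had their highest level in the third CK resistant library and differed in the susceptible class. PP2C 68a had 5.47, 4.14 and 25.9 FPKM in CK resistant and 1.97, 1.67 and 0.887 FPKM in BV-3 resistant, with no overlap and a log2 fold change of -2.83 ± 0.74. PP2C 68b had 7.70, 2.64 and 23.5 FPKM in CK resistant and 1.93, 1.24 and 0.621 FPKM in BV-3 resistant, again with no overlap and a log2 fold change of -3.02 ± 0.74. Both owed much of their mean to the third CK resistant library, and without it the log2 fold changes were -1.62 for PP2C 68a and -2.00 for PP2C 68b. In the susceptible class PP2C 68a stood at 5.49, 4.16 and 1.76 FPKM under CK and at 5.00, 12.0 and 11.3 FPKM under BV-3. PP2C 68b stood at 1.20, 2.51 and 1.28 FPKM under CK and at 1.80, 2.07 and 2.13 FPKM under BV-3. Both pairs of ranges overlapped, with log2 fold changes of 1.30 ± 0.70 for PP2C 68a (0.73 without the libraries labelled CK susceptible 2 and 3) and 0.27 ± 0.68 for PP2C 68b (0.67). Under BV-3 the resistant libraries held PP2C 68a below every susceptible library, at a log2 fold change of -2.84 ± 0.74, while PP2C 68b overlapped at -0.85 ± 0.69. The libraries labelled CK susceptible 2 and 3 carried resistant markers. The third held PP2C 68a at 1.76 and PP2C 68b at 1.28 FPKM, within the BV-3 resistant ranges. The second, at 4.16 and 2.51 FPKM, lay above those ranges.

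PP2C 9 and PP2C 30 had the highest mean levels of the 9 genes over the 12 libraries, and in the susceptible class their BV-3 and CK libraries did not overlap. PP2C 9 had 16.7, 15.2 and 9.36 FPKM in CK susceptible and 49.1, 49.0 and 40.4 FPKM in BV-3 susceptible. PP2C 30 had 17.0, 7.69 and 6.96 FPKM in CK susceptible and 33.7, 39.8 and 26.2 FPKM in BV-3 susceptible. In both genes every BV-3 library was above every CK library. The log2 fold changes were 1.74 ± 0.43 for PP2C 9 and 1.62 ± 0.50 for PP2C 30, and without the libraries labelled CK susceptible 2 and 3 they were 1.41 and 0.90. In the resistant class PP2C 9 had 26.6, 19.2 and 58.7 FPKM under CK and 26.9, 26.9 and 12.3 FPKM under BV-3. PP2C 30 had 58.7, 24.6 and 100 FPKM under CK and 47.2, 64.4 and 32.6 FPKM under BV-3. The ranges of both genes overlapped there, and the third CK resistant library was again the highest. The log2 fold changes of -0.57 ± 0.42 for PP2C 9 and -0.29 ± 0.49 for PP2C 30 became -0.04 and 0.18 without that library.

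The factors followed 2 different patterns. ABI5-like protein 5 had 3.04, 3.37 and 2.14 FPKM in CK susceptible and 4.63, 4.17 and 5.40 FPKM in BV-3 susceptible. The BV-3 libraries were all higher, by a small step, with a log2 fold change of 0.72 ± 0.31. In CK resistant it had 6.08, 13.3 and 10.1 FPKM, and in BV-3 resistant 4.14, 7.92 and 4.73 FPKM. These ranges overlapped at a log2 fold change of -0.77 ± 0.31, and the highest value came from the second CK resistant library. Without that library and those labelled CK susceptible 2 and 3 it was -0.49.

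ABI5-like protein 4 was high in the libraries with susceptible markers. Its levels were 11.1, 31.1 and 11.7 FPKM in BV-3 susceptible and 0.389, 1.73 and 0.209 FPKM in BV-3 resistant, and the log2 fold change of resistant over susceptible was -4.86 ± 1.61. In CK susceptible the levels were 5.23, 0 and 0.421 FPKM, and in CK resistant 0.839, 0.147 and 0.397 FPKM. The 4 libraries above 5 FPKM were the 4 with the markers of the susceptible line. The library at 0 had 0 counts, where counting error alone allows up to 3, and carried the markers of the resistant line. BV-3 against CK in the susceptible class gave a log2 fold change of 3.20 ± 1.49, which was 1.73 without the libraries labelled CK susceptible 2 and 3 and 6.32 without the first. In the resistant class it was 0.69 ± 1.42 and turned to -0.44 without the second BV-3 resistant library, and was 1.46 without the first CK resistant one. The count table uses the same gene models for both classes, and an absent transcript cannot be told apart from reads that did not map.

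**Figure D1:**
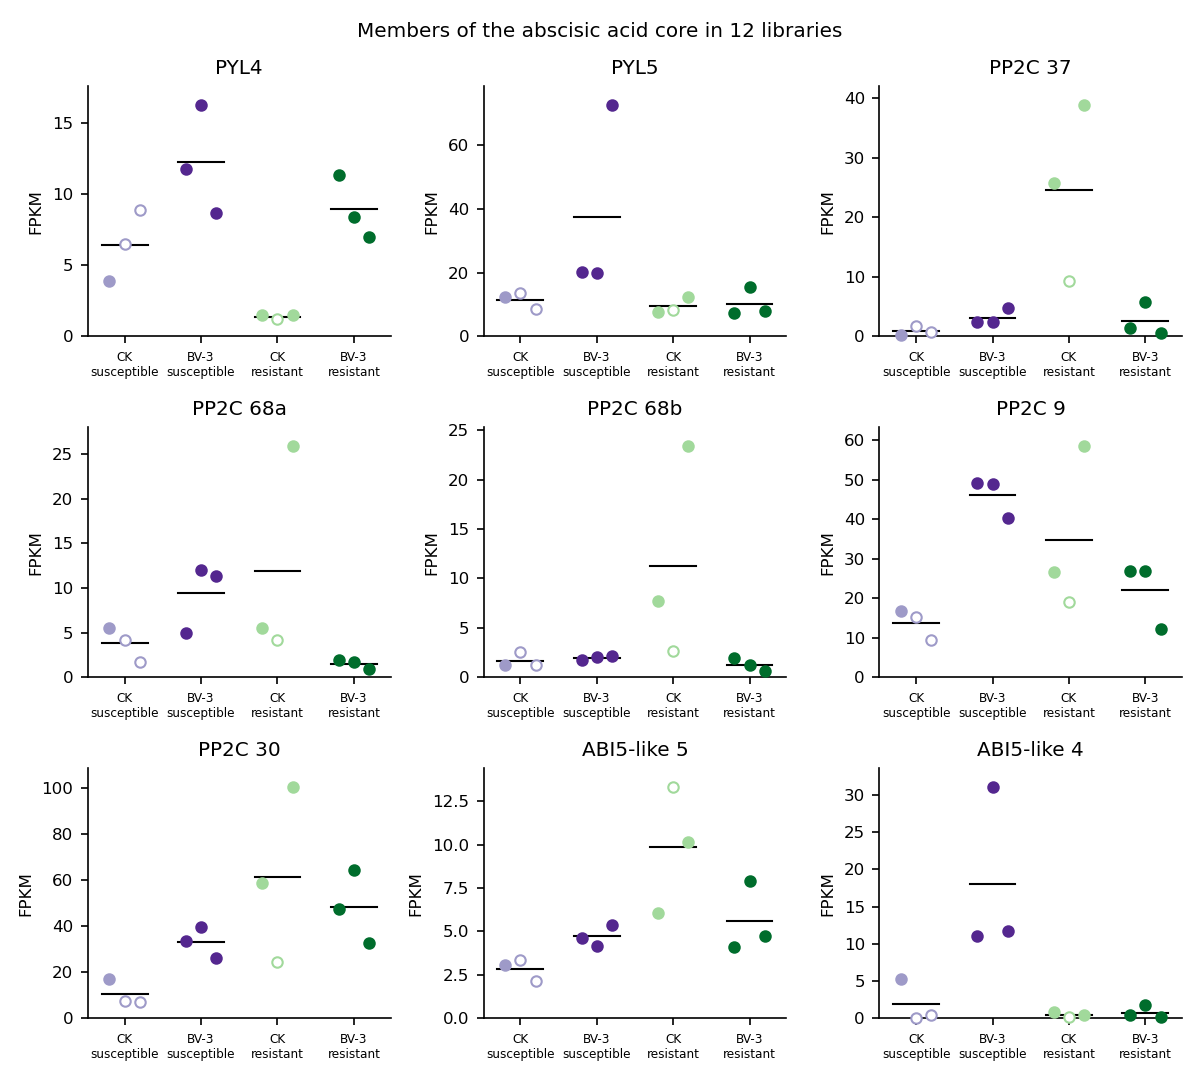
FPKM of the 9 genes in the 12 libraries (1 point per library, line at the group mean, each panel with its own linear axis from 0). Open points are the libraries labelled CK susceptible 2 and 3 and the second CK resistant library. PYL4 is at 1.18 to 1.49 FPKM in CK resistant, and ABI5-like protein 4 exceeds 5 FPKM in 4 libraries only. All 5 phosphatases are highest in the third CK resistant library.

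Over all 12 libraries PP2C 30 had the highest mean level, at 38.3 ± 26.6 FPKM (SD, n = 12), followed by PP2C 9 at 29.2 ± 16.3 and PYL5 at 17.2 ± 18.1. Then came PP2C 37 at 7.83 ± 12.1, PYL4 at 7.24 ± 4.67, PP2C 68a at 6.65 ± 7.03, ABI5-like protein 5 at 5.76 ± 3.24, ABI5-like protein 4 at 5.28 ± 9.19 and PP2C 68b at 4.05 ± 6.37. Neighbours in this order differed by less than their SD in every case. The 5 phosphatases summed to 40.7, 31.3 and 20.0 FPKM in CK susceptible, 92.0, 105 and 84.8 in BV-3 susceptible, 124, 59.8 and 248 in CK resistant and 79.4, 100 and 46.8 in BV-3 resistant. The 2 receptors summed to 16.1, 20.1 and 17.5 FPKM in CK susceptible, 31.8, 36.1 and 81.5 in BV-3 susceptible, 9.19, 9.36 and 13.8 in CK resistant and 18.6, 23.9 and 14.9 in BV-3 resistant. CK resistant thus had the lowest sums of these 2 receptors, and its sums of the 5 phosphatases were between 6.39 and 17.9 times the receptor sums. In the other 9 libraries that ratio was between 1.04 and 4.27. The libraries labelled CK susceptible 2 and 3, which carried resistant markers, were at 1.55 and 1.14. These sums hold the chosen members only. All receptors of the KEGG annotation summed to 103, 120 and 179 FPKM in CK resistant and 116, 208 and 164 in CK susceptible, which overlapped. All its phosphatases summed to 391, 226 and 730 FPKM in CK resistant and 178, 206 and 148 in CK susceptible.

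**Figure D2:**
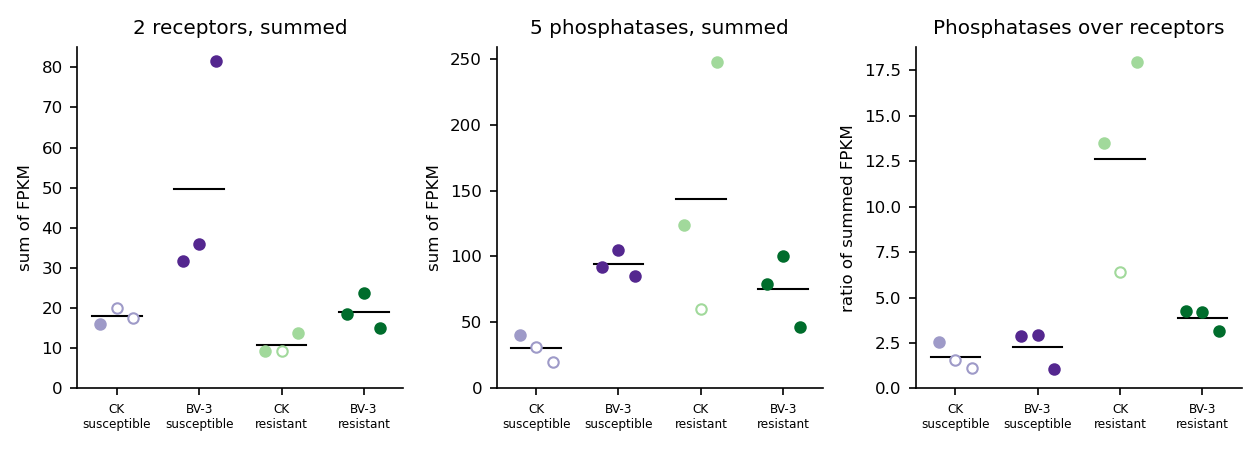
Summed FPKM of the 2 receptors and of the 5 phosphatases, and their ratio, per library (points as libraries, line at the group mean, linear axes from 0, open points as in the plot of single genes). The ratio is 6.39 to 17.9 in CK resistant and at most 4.27 elsewhere.

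BV-3 was compared with CK within each class. In the susceptible class the median log2 fold change of the 9 genes was 1.62, beside 0.07 over all 34291 genes tested, and all 9 values were above 0. The BV-3 range lay above the CK range for 6 of the 9, where 18.6% of all genes did. By edgeR's adjusted p under 0.05, 1 of the 9 was higher, PP2C 9, where 2.3% of all genes were called higher, 3.9% lower and 6.2% in either direction. That call was lost, with all others of the table, without the libraries labelled CK susceptible 2 and 3. In the resistant class the median was -0.57, beside -0.07 over all genes. There 1 gene, PYL4, lay wholly above (7.71% of all genes) and 3 lay wholly below (9.46% of all genes), these being PP2C 37, PP2C 68a and PP2C 68b. No gene of the table was called in the resistant class by edgeR (0% called; 3452 genes at an unadjusted p under 0.05, and 1044 genes called by DESeq2). Since the genes were chosen with results known, nothing is read from these shares.

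**Figure D3:**
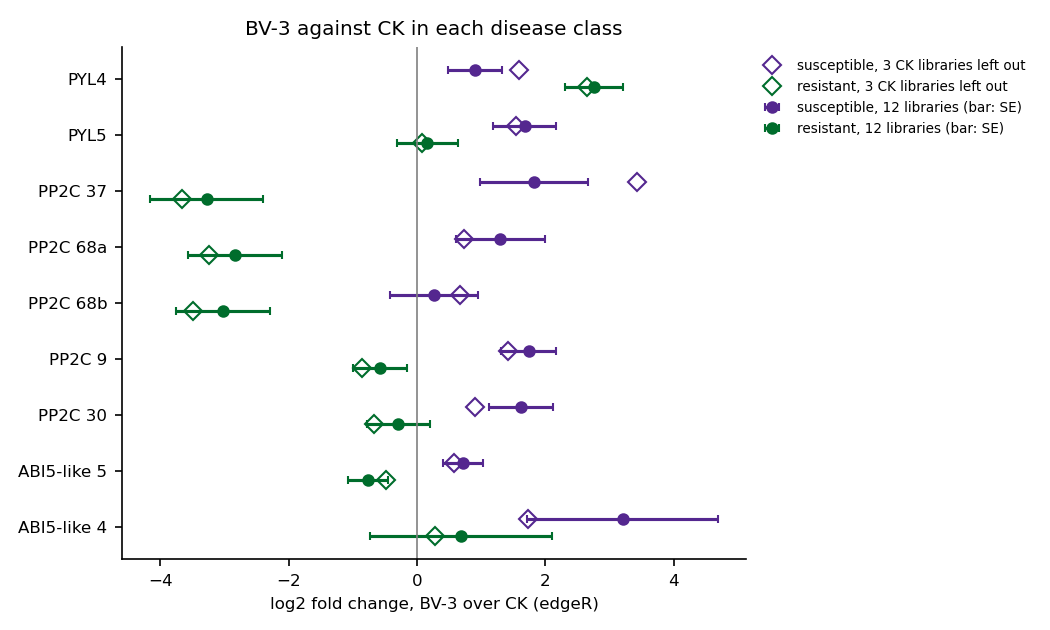
Log2 fold change of BV-3 over CK for each gene in the susceptible and the resistant class (filled points with SE, all 12 libraries; open diamonds, refitted without the libraries labelled CK susceptible 2 and 3 and the second CK resistant library). All 5 phosphatases are above 0 in the susceptible and below 0 in the resistant class, and PYL4 is above 0 in both.

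For resistant against susceptible plants under BV-3, a comparison that uses the BV-3 libraries of both others, 4 of the 9 lay wholly below, PYL5, PP2C 68a, PP2C 9 and ABI5-like protein 4, where 14.7% of all genes did, and none lay wholly above, where 20.8% did. PP2C 9 had a log2 fold change of -1.29 ± 0.42. The remaining 5 ranges overlapped, among them PP2C 37 at -0.60 ± 0.81, PP2C 30 at 0.29 ± 0.49 and PYL4 at -0.66 ± 0.42. Single libraries moved these values: PP2C 37 was at -1.79 without the second and at -0.05 without the third BV-3 resistant library, PP2C 30 at 0.14 without the third BV-3 susceptible and at 0.55 without the third BV-3 resistant library, and PYL4 at -0.38 without the second BV-3 susceptible library. ABI5-like protein 5 stood at -0.01 ± 0.31, with the same sign in 13 of 20 alternatives. No gene of the table was called by edgeR in this comparison (0% called; 7522 at an unadjusted p under 0.05; DESeq2 called 4724).

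The difference between the fold changes of the 2 classes was negative for all members but PYL4. It was 1.85 ± 0.59 for PYL4 and -1.52 ± 0.68 for PYL5. For the phosphatases it ranged from -5.10 ± 1.21 in PP2C 37 over -4.13 ± 1.01 in PP2C 68a, -3.29 ± 0.99 in PP2C 68b and -2.31 ± 0.60 in PP2C 9 to -1.91 ± 0.70 in PP2C 30. The factors stood at -1.49 ± 0.44 for ABI5-like protein 5 and -2.51 ± 2.00 for ABI5-like protein 4. Without the third BV-3 susceptible library PYL5 was at -0.62. Without the libraries labelled CK susceptible 2 and 3, PYL4 was at 1.18, PP2C 30 at -1.19 and ABI5-like protein 4 at -1.04, and without the first library labelled CK susceptible ABI5-like protein 4 was at -5.63. The median over the 9 was -2.31, beside -0.13 over all genes. No gene of the table was called in this test of the difference by edgeR (0% called; 4688 at an unadjusted p under 0.05; DESeq2 called 1696).

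The rest of the same families was read from the KEGG annotation in the table, a grouping taken up after the values were seen. It holds 21 phosphatases, among which PP2C 30 and PP2C 9 ranked 3 and 4 by mean level and the other members 11, 14 and 15. The 5 members made up 13.5 to 33.9% of the family's summed FPKM. Of the 15 other phosphatases tested, 13 had a positive log2 fold change in the susceptible class (median 0.94) and 10 a negative one in the resistant class (median -0.71), and 9 had both. All 5 members and 6 of the 15 others had their highest level in the third CK resistant library. So did 7 of the 17 other binding factors, 5 of 20 SnRK2 kinases and 0 of the 10 other receptors. The shares of all genes with these signs or this highest library were not counted, so nothing particular to the phosphatases is read from them. The edgeR test called 1 of these 15 in the susceptible class and 0 in the resistant class (4 at an unadjusted p under 0.05, 3 by DESeq2).

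A phosphatase named PP2C 50 (Zm00001eb356420), second in the family by level, resembled the members. Its levels were 21.9, 18.9 and 15.2 FPKM in CK susceptible, 33.6, 41.9 and 36.1 in BV-3 susceptible, 79.7, 39.0 and 155 in CK resistant and 28.8, 43.7 and 25.3 in BV-3 resistant. All BV-3 susceptible libraries were above all CK susceptible ones, while the resistant ranges overlapped. PP2C 12 (Zm00001eb239920) went the other way, from 12.0, 37.9 and 20.1 FPKM in CK susceptible to 7.69, 9.48 and 10.3 in BV-3 susceptible. Both were named after their values were seen, and neither was called by edgeR in the susceptible class (adjusted p = 0.16 and 0.10). The receptor family holds 15 genes, 1 of them named as an MLP-like protein. In the resistant class 9 of its 10 other tested genes had a positive log2 fold change (median 1.00, beside -0.07 over all genes). The share of all genes with a positive value was not counted. None of those 10 was called by edgeR there (3 at an unadjusted p under 0.05, 1 by DESeq2).

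**Figure D4:**
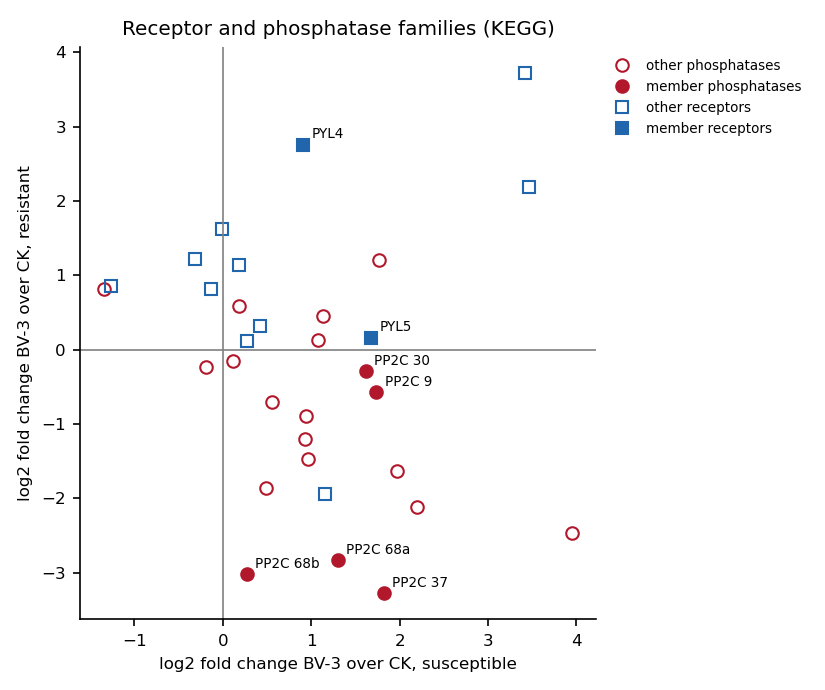
Log2 fold changes of BV-3 over CK in the resistant class (vertical) against the susceptible class (horizontal), 1 symbol per tested gene of the KEGG receptor (squares) and phosphatase (circles) families, members filled. The 5 member phosphatases and 9 of the 15 others lie right of the vertical and below the horizontal line. Of the receptors, 2 members and 9 of the 10 others lie above the horizontal line.

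Other genes of the pathway were taken from 9 lists of descriptions, 395 genes in all without the members, of which 234 were tested. In the susceptible class 10 rose and 6 fell by edgeR, where 2.3% of all genes were called higher and 3.9% lower. Both directions together made a share close to the 6.2% called over all genes, and the median log2 fold change was 0.32. These calls were fragile: edgeR called 0 without the libraries labelled CK susceptible 2 and 3, and also 0 when any 1 of 10 libraries was left out, but 38 without the second CK resistant library and 50 without the first labelled CK susceptible. In the resistant class edgeR called 0 of the 234 (31 at an unadjusted p under 0.05; DESeq2 called 10, limma 0).

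Of 117 PP2C genes of any group, 6 rose and 3 fell in the susceptible class, where 2.3% of all genes were called higher and 3.9% lower. PP2C 34 (Zm00001eb058130) rose from 22.9, 15.3 and 18.0 FPKM under CK to 89.0, 95.2 and 51.8 FPKM under BV-3 (log2 fold change 2.05 ± 0.34, edgeR adjusted p = 0.0378). PP2C 62 (Zm00001eb322340) rose by 1.17 ± 0.22 and PP2C 54 (Zm00001eb374920) by 1.35 ± 0.30 on the log2 scale (edgeR adjusted p = 0.0398 and 0.0426). In all 3 the ranges of CK and BV-3 did not overlap.

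Of 19 SnRK2 genes, the kinases that act below the phosphatases, 1 rose and 3 fell, beside 2.3% and 3.9% of all genes. The 3 that fell all bear the name of rice SAPK10. Other genes of that name were not called, such as Zm00001eb051510 at a log2 fold change of -1.02. Zm00001eb219160 stood at 29.7, 57.8 and 52.8 FPKM under CK and 10.7, 19.4 and 12.6 FPKM under BV-3 (log2 fold change -1.72 ± 0.35, edgeR adjusted p = 0.0398). Zm00001eb360420 stood at 0.121, 44.2 and 34.7 FPKM under CK and 0, 0.334 and 0.163 FPKM under BV-3, and at 18.8 to 61.4 FPKM in the resistant class. Its only low CK library was the first, the one with the markers of the susceptible line. Zm00001eb191470 stood at 0.164, 0.907 and 0.748 FPKM under CK and was listed at 0 in all 3 BV-3 susceptible libraries. Its 2 higher CK values also came from the libraries with resistant markers, and the resistant class held 0.425 to 2.63 FPKM.

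Genes of hormone breakdown and of its late targets were called in small numbers, where 2.3% of all genes were called higher. Abscisic acid 8'-hydroxylase 2 (Zm00001eb356300), which starts the breakdown of the hormone, rose from 0.889, 0.509 and 0.754 FPKM to 16.8, 5.38 and 1.94 FPKM (log2 fold change 3.44 ± 0.91, edgeR adjusted p = 0.0498), 1 call among 6 genes. Of 30 dehydrin and LEA genes, 2 rose. Lea14-A (Zm00001eb344820) stood at 133, 66.8 and 68.2 FPKM under CK and 291, 413 and 264 under BV-3, and dehydrin COR410 (Zm00001eb250120) at 93.8, 11.2 and 12.8 FPKM under CK and 353, 529 and 194 under BV-3. In both genes the lower CK values came from the libraries labelled CK susceptible 2 and 3, which carried resistant markers. In COR410 the first CK library, the one with susceptible markers, was far above them.

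In the other 5 lists edgeR called no gene in the susceptible class. At an unadjusted p under 0.05 there was 1 of 9 receptors, 1 of 10 ABF and ABI5 factors, 1 of 5 ABI3, VP1 and ABI4 factors, 1 of 6 Ninja-family regulators and 8 of 32 synthesis genes, and DESeq2 called 1, 0, 0, 1 and 5 of them. The most abundant receptor, named PYL3 (Zm00001eb238230), had 23.0, 91.8 and 61.2 FPKM in CK susceptible and 30.7, 21.6 and 16.0 FPKM in BV-3 susceptible, and its 2 highest values came from the libraries with resistant markers. A second PYL3 gene (Zm00001eb204180) had a log2 fold change of -0.31 ± 0.40. The TRAB1 gene with the highest level (Zm00001eb314860) was at -0.38 ± 0.49. Zeaxanthin epoxidase (Zm00001eb423570), an early enzyme of the route to the hormone, was at 0.39 ± 0.57, and an aldehyde oxidase (Zm00001eb060260), of the family that makes its last step, at 1.03 ± 0.34. Ninja-family protein 1 (Zm00001eb400170) and protein 6 (Zm00001eb020120), a family that binds ABI5 in Arabidopsis, were at 0.58 ± 0.41 and -0.44 ± 0.36. The lists of factors also caught an ABF2-interacting arm repeat protein (Zm00001eb349910), a FRIGIDA-like protein (Zm00001eb094390) and a protein named SUPPRESSOR OF ABI3-5 (Zm00001eb306360), at -0.05, 0.49 and -0.02.

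The genes most like each member across the 12 libraries were found by Pearson's r of log2(FPKM + 1) among 15206 named genes. The libraries share the 4 groups, so r describes likeness of pattern and carries no test. ABI5-like protein 4 was nearest to NEP1-interacting protein-like 1 (Zm00001eb039970, r = 0.99) and PYL4 to the protein SCARECROW (Zm00001eb093670, r = 0.94). PP2C 68b was nearest to the autophagy protease ATG4B (Zm00001eb433950, r = 0.96), PP2C 30 to COBRA-like protein 6 (Zm00001eb327000, r = 0.96) and PP2C 37 to the ATPase FIGL1 (Zm00001eb339080, r = 0.94). ABI5-like protein 5 was nearest to a membrane proton pump (Zm00001eb031220, r = 0.97), PP2C 9 to a universal stress protein A-like protein (Zm00001eb188520, r = 0.93) and PYL5 to an F-box protein (Zm00001eb413520, r = 0.94). PP2C 68a had the weakest nearest gene, a 3-hydroxybutyryl-CoA dehydrogenase (Zm00001eb369580, r = 0.86).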

How the data were processed

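Messenger RNA of 12 whole-plant libraries was selected by poly(A) and sequenced from strand-specific libraries, per the labels' protocols. The authors deposited 1 table with raw counts and FPKM values per gene and library, per the file headers. The authors scaled the FPKM values. The sources used here do not name the aligner, the counter or the strand setting. Reads shared by genes of the same name (3 named PYL4, 6 PYL5, 2 PP2C 68) may have been split. The submitters' processing notes name B73 RefGen, version 4, whereas the identifiers have the form of a later annotation, so no coordinates are given.

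The table held 52934 lines, of which 2 named no gene and were dropped. Counts were tested with edgeR 4.0.16 (R 4.3.3) after TMM scaling and edgeR's filter on low counts, which kept 34291 genes and all 9 members, in 1 fit of 4 group means over all 12 libraries. The threshold was an adjusted p (Benjamini-Hochberg, over all genes tested) of 0.05. Total counts of 27.0 to 37.8 M set the precision, and a count of 0 covers counting error only. Mean chi-square per gene between replicates was 66.9 to 452, so no library was counted as a repeat. Alternatives were DESeq2 1.42.0, its size factors in edgeR, no filter, limma 3.58.1 on log2(FPKM + 1) and log2(FPKM + 0.1), a replicate block, and libraries left out.

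The members and lists were chosen with earlier results of these data known. Named were all members, up to 3 called genes per list by smallest p or, with none called, the 2 most abundant, and per member the most alike gene whose highest group averaged 5 FPKM or more. Of the 2 such genes per member, the nearest is given.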

Additional observations from a re-analysis of the deposited data

Results flagged for a closer look

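PP2C 37 (Zm00001eb419870) was picked out because its groups moved in opposite directions without overlap, all BV-3 libraries above all CK libraries in the susceptible class and all below in the resistant class. The fold change in the resistant class less that in the susceptible class was -5.10 on the log2 scale (SE 1.21). The edgeR test of this difference called no gene of the table. Without the libraries labelled CK susceptible 2 and 3 the difference was -6.70, and without the second CK resistant library as well it was -7.09. Both refits left 1 CK susceptible library, with 21 counts of the gene. The libraries labelled CK susceptible 2 and 3 carried resistant markers. They held PP2C 37 at 1.76 and 0.653 FPKM, below all CK resistant libraries and within the BV-3 resistant range.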

How the results depend on the processing

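Counts of called genes depended on the libraries and the tool. Of 720 alternative fold changes of the members, 688 moved by at most 1 SE and 32 by more. Many of these settings left out libraries outside the comparison and could hardly move it, so the 688 are no measure of stability. Settings inside the comparison could move it further. PP2C 68a in the resistant class went from -2.83 to -1.62 without the third CK resistant library. Among susceptible libraries edgeR's 2125 calls became 0 without the libraries labelled CK susceptible 2 and 3, 1 without the second CK resistant library as well, 546 with the replicate block and 7010 with DESeq2, and leaving out each library in turn gave 0 to 6946, with 5307 without the second CK resistant library and at most 76 without any of the 10 other than that and the first labelled CK susceptible. The share of higher genes among the calls was 37.1%, but 71.9% with limma on log2(FPKM + 1), 65.2% with limma on log2(FPKM + 0.1) and 58.2% with the block. The 16 calls among other pathway genes became 0 in both smaller sets, 3 with the block, 47 with DESeq2 and 0 to 50 with each library left out. In the resistant class 0 calls became 1044 with DESeq2, 6 and 5 with limma at a pseudocount of 1 and 0.1, and 0 to 3 with each library left out, and DESeq2 called 10 of the other pathway genes. Resistant against susceptible under BV-3 gave 3710 and 5932 calls in the smaller sets, 4724 with DESeq2, 2389 and 3044 with limma, 1 with the block and 0 to 4225 with each library left out. The difference of the classes gave 1696, 2 and 1 calls with DESeq2 and limma, and 0 to 2083 with each library left out. The cause was not tested. Where 1 CK susceptible library was left, it was assumed to vary like the other groups. The values did not settle whether replicate numbers pair the samples, and the main fit used no pairing. Deviations of same-numbered BV-3 and CK libraries correlated between -0.19 and 0.02 in the susceptible class. In the resistant class they correlated at 0.50, 0.55 and -0.04. In the susceptible class 1 of 3 BV-3 libraries was most like the CK library of its own number, and in the resistant class 2 of 3 were.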

Other observations

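Genes that share a name with a member often differed from it, and the genes below were chosen after their values were seen. A second PYL4 gene (Zm00001eb013780) had 5.91, 6.48 and 3.63 FPKM in CK resistant and 17.6, 15.4 and 14.2 in BV-3 resistant, without overlap, at a log2 fold change of 1.63. A second PYL5 gene (Zm00001eb283810) stayed between 18.3 and 33.9 FPKM in all 12 libraries. A second PP2C 37 gene (Zm00001eb088070) was at most 0.845 FPKM in any library. Protein FD (Zm00001eb259650), a zipper factor known in Arabidopsis for flowering, was the 1 fall called by edgeR among the 17 other binding factors tested in the susceptible class. It stood at 23.5, 62.1 and 50.2 FPKM under CK and at 8.46, 9.90 and 16.6 under BV-3, and its 2 highest values came from the libraries that went against their label.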
